A study of Danio rerio with 32 samples.

Results

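The 5 genes described here are atm, ccng1, one of the gadd45g paralogs, ccndx and gins2, out of 15710 genes measured in zebrafish embryos. They were picked by identifier (ENSDARG00000002385, ENSDARG00000076667, ENSDARG00000016725, ENSDARG00000019741 and ENSDARG00000002304, in that order) with their values by treatment and by library number already known, and all 5 were measured in all 32 libraries. Polyadenylated RNA of whole embryos was sequenced in 4 groups of 8 libraries, from embryos exposed to valproic acid, all-trans retinoic acid or folic acid, or left as control embryos. Every group was held in the same rearing water with 0.01% DMSO, and the exposure lasted 4 h, from 3 to 7 h after fertilization, from the blastula stage into gastrulation. Valproic acid is an antiepileptic drug that inhibits histone deacetylases, retinoic acid is a vitamin A metabolite that activates nuclear receptors, and folic acid is the vitamin that the series uses as a negative control. The labels give no doses and no strain, and nothing in them tells whether replicates came from separate batches of embryos, so each p-value is set against a spread over libraries that may be technical. Values are the deposited log2 levels, on which a difference of 1 is a 2-fold difference, and levels are compared between groups for a gene, not between genes.

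The 5 genes act at different points of the response to damaged DNA and of the decision to divide. ATM is a kinase that is activated by double-strand breaks and phosphorylates checkpoint kinases. Cyclin G1 is induced by DNA damage in mammals and binds protein phosphatase 2A. Gadd45 proteins are small stress-induced proteins that bind the cell cycle machinery and activate the kinase MAP3K4, upstream of the p38 and JNK kinases, and in vertebrate embryos Gadd45g is also expressed during neurogenesis. The gene ccndx encodes a D-type cyclin, a family that drives entry into S phase with CDK4 and CDK6, and gins2 encodes a subunit of the GINS complex of the replicative helicase. The last pair therefore serves growth, so damage and growth arrest is a label of the set and not a shared function.

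The libraries carry numbers up to 48 in their titles, and each set of 12 numbers holds 2 libraries of every group, so the sets are balanced over the treatments. Because genes with equal read counts share a value within a library, the reads behind a low value were estimated from its rank among the distinct values. By this estimate the lower-quartile gene had 12 to 52 reads per library, and the 2 shallowest libraries were both in the folic acid group. Against control, limma called 31.3% of genes in valproic acid, 0.732% in retinoic acid and 0 in folic acid, where 507 genes had an unadjusted p under 0.05. The sets also differed, with 21.4% of genes called in numbers 25 to 36 against 1 to 24 and 8.24% in numbers 37 to 48 against 1 to 24.

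Valproic acid embryos had more atm and ccng1 mRNA and less gadd45g and ccndx mRNA than control embryos, and gins2 was within the spread of the libraries. The estimated difference was 1.39 for atm (SE 0.12), 0.40 for ccng1 (SE 0.08), -2.31 for gadd45g (SE 0.27), -2.41 for ccndx (SE 0.56) and 0.24 for gins2 (SE 0.25) on the log2 scale. The members were chosen with this contrast known, so these values are a description and no test is attached to them. The valproic acid and control libraries did not overlap for 2 of the 5 genes, atm and gadd45g, beside 6.82% of all genes in either direction, 4.04% higher and 2.78% lower. Within every one of the 4 title-number sets the libraries were apart for atm and ccng1, higher, and for gadd45g and ccndx, lower, beside 8.05% and 6.02% of all genes, 14.1% together. In whole embryos, fewer cells of a type and less RNA per cell cannot be told apart.

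**Figure D1:**
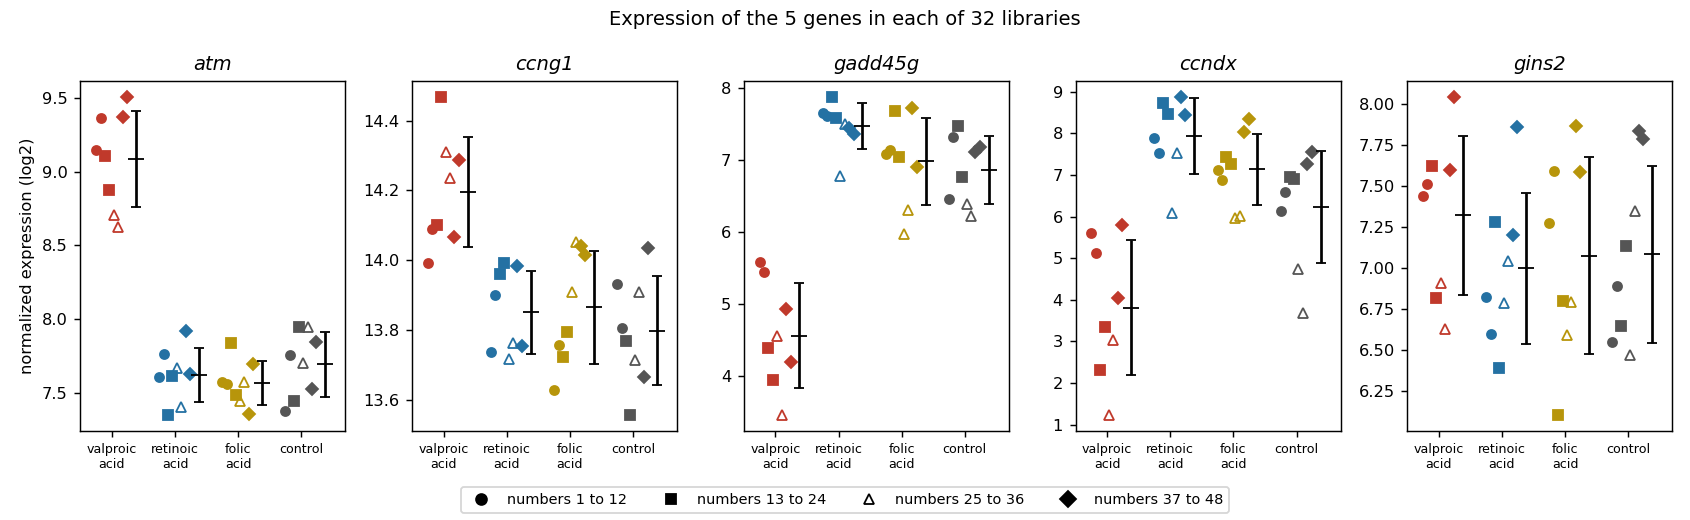
Deposited log2 expression (vertical axes, a separate scale for each gene) of the 5 genes in valproic acid, retinoic acid, folic acid and control libraries, with 1 point per library, marker shape for the set of title numbers, and bars for the mean ± SD (n = 8 libraries). All valproic acid points of atm lie above, and all those of gadd45g below, every control point.

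The kinase gene atm was at 8.62 in its lowest valproic acid library, 9.13 in the median and 9.51 in its highest, against 7.38, 7.73 and 7.95 in control libraries. All 8 valproic acid libraries were above every control library, a 2.63-fold difference of the means. Retinoic acid libraries ran from 7.35 to 7.92 with a median of 7.62, and folic acid libraries from 7.36 to 7.84 with a median of 7.57. Both ranges lay across the control range. Within the sets of title numbers the valproic acid difference was 1.69 in numbers 1 to 12, 1.30 in 13 to 24, 0.84 in 25 to 36 and 1.75 in 37 to 48, so it had the same direction in all 4 sets and was smallest in 25 to 36. Of all genes measured, 97.8% had a lower difference than atm.

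Among the other genes of DNA damage signalling, more rose than fell in valproic acid, and as many did not pass the test as did. Of 26 measured genes of this list besides atm, 12 rose, 1 fell and 13 did not pass (limma, Benjamini-Hochberg adjusted p under 0.05), which is 46.2% rising beside 15.9% of all genes, and 3.85% falling beside 15.4%. The median difference of the list was 0.22, against -0.01 over all genes. This and the later gene lists were chosen with earlier results of these data known, so their shares are a description. The gene atrip, whose product recruits the kinase ATR to single-stranded DNA, averaged 8.18 ± 0.06 in valproic acid libraries and 7.01 ± 0.21 in control libraries (SD, n = 8 each), and all valproic acid libraries were above all control libraries (log2 difference 1.16, SE 0.14, limma adjusted p = 2.1e-07). ATR itself rose by 0.47 (SE 0.14, adjusted p = 0.010; 0.062 with the 2 libraries of a group and set averaged), and the checkpoint kinase genes chek2 and CHEK1 rose by 0.50 (SE 0.12, adjusted p = 0.0022) and 0.34 (SE 0.09, adjusted p = 0.0036). PRKDC, the DNA-dependent protein kinase of end joining, rose by 0.46 (SE 0.08, adjusted p = 8.8e-05). The partner genes TIMELESS and tipin, whose products protect stalled replication forks, rose by 0.41 (adjusted p = 0.00047) and 0.25 (adjusted p = 0.0012). The remaining 6 called genes of the list are named here after their values were seen. MRE11 and RAD50, which sense breaks upstream of ATM, rose by 0.63 (adjusted p = 0.0053) and 0.35 (adjusted p = 0.028). The gene nbn, which encodes their partner subunit, did not pass, with -0.16 (adjusted p = 0.41). The mediator gene mdc1 rose by 0.40 (adjusted p = 0.0016), brca2 by 0.29 (adjusted p = 0.0029) and the clamp loader gene RAD17 by 0.36 (adjusted p = 0.018). The clamp subunit gene rad9b fell by 1.57 (SE 0.37, adjusted p = 0.0013). It was not among the calls with a filter at a mean of 5, and rad9a differed by 0.02 (adjusted p = 0.93). Without the libraries numbered 25 to 36, 11 genes of the list rose and 3 fell. The count that fell was also 3 with the sets as a block, 0 with a filter at a mean of 5, and 2 without control replicate 2 or 6 or valproic acid replicate 4, 5 or 6.

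Repair genes were divided. Of 45 measured genes, 10 rose, 6 fell and 29 did not pass, 22.2% and 13.3% beside the 15.9% and 15.4% of all genes, with a median of 0.06. ERCC2, a helicase of nucleotide excision repair, rose by 0.59 (SE 0.08, adjusted p = 1.5e-06), and REV3L, the catalytic subunit of the translesion polymerase zeta, rose by 0.83 (SE 0.12, adjusted p = 1.7e-06). ERCC4, an excision nuclease gene, rose by 0.77 (adjusted p = 3.2e-06), and XRCC6, which encodes the Ku70 subunit of end joining, rose by 0.51 (adjusted p = 9.2e-06). The 6 falls are named after their values were seen. They were LIG4 with -0.48 (adjusted p = 0.00079), LIG3 with -0.16 (0.0074) and POLB with -0.28 (0.018). The others were RAD54L with -0.31 (adjusted p = 0.019), UNG with -0.24 (0.035) and ERCC1 with -0.28 (0.0495). The number that fell was 3 without control replicate 6 and also 3 without the libraries numbered 25 to 36. With the 2 libraries of a group and set averaged, 7 rose and 3 fell.

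Cyclin G1 showed a small difference against a narrow spread. In valproic acid ccng1 was at 13.99 in the lowest library, 14.17 in the median and 14.47 in the highest, against 13.56, 13.79 and 14.03 in controls, a 1.32-fold difference of the means. The groups overlapped at the edge, where the lowest valproic acid library lay below the highest control library, and the libraries did not overlap within any of the 4 sets. Retinoic acid libraries ran from 13.72 to 13.99 and folic acid libraries from 13.63 to 14.05, both across the control range. The set differences in valproic acid ran between 0.17 in numbers 1 to 12 and 0.62 in 13 to 24.

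Genes of growth arrest and cell death that DNA damage induces, or that regulate this response, moved mostly upward in valproic acid where they were called. Of 32 measured genes of this list besides ccng1, 10 rose, 2 fell and 20 did not pass (limma), 31.2% rising beside 15.9% of all genes and 6.25% falling beside 15.4%, with a median of 0.13. The sestrin gene SESN1, a stress-induced regulator of growth signalling, averaged 9.35 ± 0.30 in valproic acid libraries and 7.70 ± 0.31 in control libraries (log2 difference 1.65, SE 0.16, adjusted p = 1.6e-09). Its relative sesn2 rose by 0.77 (SE 0.13, adjusted p = 2.4e-05), and CCNG2, the other measured cyclin G gene, rose by 0.26 (SE 0.10, adjusted p = 0.044). The cell death gene bida rose by 0.81 (SE 0.16, adjusted p = 0.00017). Other cell death genes among the rises are named after their values were seen. They were pmaip1 with 0.63 (adjusted p = 0.0061), BAX with 0.24 (adjusted p = 0.012) and APAF1 with 0.37 (adjusted p = 0.017). The cell death genes bbc3 (-0.07), casp8 (-0.11), PERP (-0.03), pidd1 (0.24) and baxb (0.50) did not pass. TP63, a transcription factor that specifies epidermis, fell by 1.67 (SE 0.31, adjusted p = 9.5e-05). The other fall, also named after its value was seen, was PLK2 with -1.25 (SE 0.40, adjusted p = 0.015). With a filter at a mean of 5 the list had 1 fall. Neither mdm2 nor cdkn1a, both induced by DNA damage in many cells, passed the test. The ubiquitin ligase gene mdm2 differed by -0.14 (95% interval -0.38 to 0.11, adjusted p = 0.43), and cdkn1a, which encodes the kinase inhibitor p21, by -0.48 (95% interval -1.08 to 0.12, adjusted p = 0.22). The count of rises in the list was 6 without the libraries numbered 25 to 36 and 5 with averaged libraries. The call of CCNG2 ended without those libraries (adjusted p = 0.22), without the intensity trend (0.051), with only these 2 groups (0.071) and with averaged libraries (0.12). It also ended in 10 of the 32 fits that each leave a library out (control replicates 2 to 5 and valproic acid replicates 3 to 8), where the adjusted p was between 0.055 and 0.11.

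**Figure D2:**
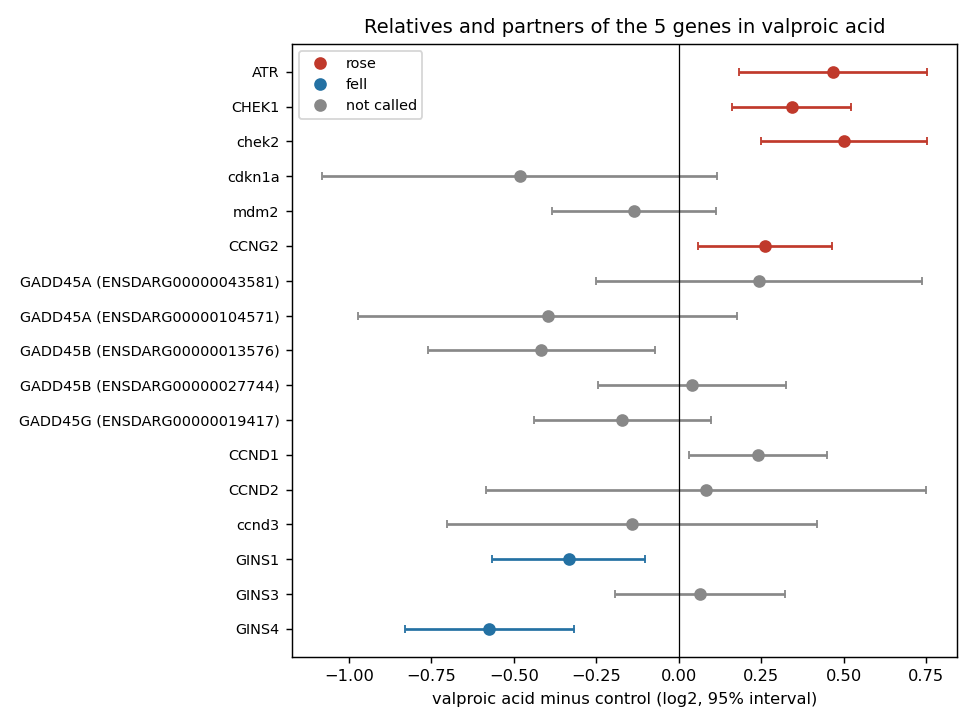
Valproic acid minus control, as the log2 difference with its 95% interval from limma (n = 8 libraries per group), for the checkpoint kinases, mdm2, cdkn1a and the relatives of ccng1, gadd45g, ccndx and gins2. ATR, CHEK1, chek2 and CCNG2 rose, GINS1 and GINS4 fell, and the intervals of the 5 other GADD45 genes lie between -0.97 and 0.74.

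The gadd45g gene was the member with the clearest fall. In valproic acid it was at 3.46 in the lowest library, 4.46 in the median and 5.58 in the highest, against 6.21, 6.93 and 7.48 in controls, a 4.95-fold difference of the means. The highest valproic acid library was below the lowest control library. The estimated reads were 5 to 41 per library in valproic acid (median 11) and 26 to 111 in controls (median 76). Within the sets the difference was -1.38 in numbers 1 to 12, -2.96 in 13 to 24, -2.30 in 25 to 36 and -2.59 in 37 to 48, so the fall was least in the first set and the libraries were apart in each of the 4.

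None of the other Gadd45 genes passed the test in valproic acid. A second identifier named GADD45G, ENSDARG00000019417, averaged 9.05 ± 0.30 in valproic acid libraries and 9.22 ± 0.21 in control libraries (log2 difference -0.17, 95% interval -0.44 to 0.10, limma adjusted p = 0.34). The genes named GADD45B, ENSDARG00000013576 and ENSDARG00000027744, differed by -0.42 (95% interval -0.76 to -0.07, adjusted p = 0.058) and 0.04 (95% interval -0.24 to 0.33, adjusted p = 0.86). The genes named GADD45A, ENSDARG00000043581 and ENSDARG00000104571, differed by 0.24 (adjusted p = 0.48) and -0.40 (adjusted p = 0.30). The first GADD45B gene fell where the model held a block term for the sets (adjusted p = 0.026) and in 8 of the 32 fits that each leave a library out (control replicates 2, 3 and 4, retinoic acid 1 and 3, valproic acid 4 and 6, and folic acid 3). Paralogs with near-identical sequence can share reads, and how such reads were counted is not given in the sources used here. Of 23 measured genes of the family and its stress kinases besides the member, 3 rose, 3 fell and 17 did not pass, with a median of -0.09. Both shares are slightly under the 15.9% and 15.4% of all genes, so the counts set the list apart in neither direction. They included both identifiers of the p38 kinase MAPK14 in opposite directions, with a difference of 0.56 for ENSDARG00000028721 (SE 0.09, adjusted p = 1.6e-05) and -0.20 for ENSDARG00000000857 (SE 0.05, adjusted p = 0.0028). The p38 gene mapk11 rose by 0.64 (adjusted p = 0.0017), and MAPK12 (ENSDARG00000006409) fell by 0.38 (adjusted p = 0.0048). The other measured identifier of MAPK12, ENSDARG00000042021, is named after its value was seen. It did not pass, with a difference of 0.38 in the opposite direction (SE 0.40, adjusted p = 0.50).

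The cyclin gene ccndx had the largest difference and the widest spread. In valproic acid it was at 1.24 in the lowest library, 3.69 in the median and 5.79 in the highest, against 3.67, 6.75 and 7.56 in controls, a 5.32-fold difference of the means. The groups overlapped, because both controls numbered 25 to 36 were low, at 4.74 and 3.67, and without those 12 title numbers they did not. The lowest valproic acid library, replicate 5, was at the lowest value of its library, which is taken as 0 reads and allows up to 3, and the valproic acid libraries as a whole had 0 to 42 estimated reads (median 11), against 4 to 122 in controls (median 51). The difference was -0.99 in numbers 1 to 12, -4.09 in 13 to 24, -2.07 in 25 to 36 and -2.49 in 37 to 48, the same direction in all 4 sets with a size that the low counts leave imprecise.

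The other D cyclins did not pass the test in valproic acid. CCND1 averaged 14.88 ± 0.16 in valproic acid libraries and 14.64 ± 0.20 in control libraries (log2 difference 0.24, 95% interval 0.03 to 0.45, limma adjusted p = 0.072). CCND2 differed by 0.08 (95% interval -0.59 to 0.75, adjusted p = 0.88) and ccnd3 by -0.14 (95% interval -0.70 to 0.42, adjusted p = 0.74). CCND1 rose with the sets as a block (adjusted p = 0.0499), in the fit of the 2 groups alone (adjusted p = 0.035) and in 4 of the 32 fits that each leave a library out (retinoic acid 3, control 6, valproic acid 7 and folic acid 8). Of 27 measured genes of the G1 list besides ccndx, 2 rose and 3 fell, 7.41% and 11.1% beside 15.9% and 15.4% of all genes. With the sets as a block 4 rose and 5 fell, and with averaged libraries 1 fell. E2F1, a transcription factor of S-phase genes, averaged 6.32 ± 0.68 in valproic acid libraries and 7.38 ± 0.29 in control libraries (log2 difference -1.06, SE 0.23, adjusted p = 0.00059). TFDP1 (ENSDARG00000019293), a dimer partner of E2F, rose by 0.48 (SE 0.07, adjusted p = 1.2e-06). The other TFDP1 identifier, ENSDARG00000016304, and tfdp2 are named after their values were seen. Neither passed, with 0.16 (adjusted p = 0.20) and -0.80 (adjusted p = 0.071). E2F4 rose by 0.22 (adjusted p = 0.0087, and 0.0501 without the libraries numbered 25 to 36). E2F8 fell by 0.25 (adjusted p = 0.021, with 0.053 without valproic acid replicate 2 and 0.079 with averaged libraries).

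The helicase gene gins2 did not separate valproic acid from control. It was at 6.63 in the lowest valproic acid library, 7.47 in the median and 8.04 in the highest, against 6.47, 7.01 and 7.83 in controls, and 5 of the 8 valproic acid libraries were above the control median. Its set differences had both signs, with 0.76 in numbers 1 to 12, 0.33 in 13 to 24, -0.14 in 25 to 36 and 0.01 in 37 to 48. Of the 3 other measured subunits 2 fell, GINS4 by 0.57 (SE 0.13, limma adjusted p = 0.00069), with means of 7.26 ± 0.20 in valproic acid and 7.83 ± 0.19 in controls, and GINS1 by 0.33 (SE 0.11, adjusted p = 0.023), while GINS3 differed by 0.06 (95% interval -0.19 to 0.32, adjusted p = 0.75). The call of GINS1 ended without valproic acid replicate 5 (adjusted p = 0.053) or 7 (0.0501), without the libraries numbered 25 to 36 (0.13) and with the averaged libraries (0.054).

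The wider replication list leaned lower in valproic acid and the mitotic list hardly moved. Of 47 measured replication genes besides gins2, 5 rose, 11 fell and 31 did not pass, 10.6% and 23.4% beside 15.9% and 15.4% of all genes, with a median of -0.07. MCM7, a subunit of the helicase ring, averaged 13.72 ± 0.16 in valproic acid libraries and 14.13 ± 0.08 in control libraries (log2 difference -0.41, SE 0.07, limma adjusted p = 3.2e-05), with no overlap. The gene dbf4, which activates the origin-firing kinase Cdc7, fell by 0.32 (adjusted p = 0.0005), and recql4, a helicase of replication initiation, rose by 0.82 (SE 0.13, adjusted p = 8.3e-06). Of 32 measured mitotic genes, 2 rose and 4 fell, 6.25% and 12.5%. The centriole kinase gene PLK4 fell, with a difference of -0.46 (adjusted p = 0.00016), as did the condensin gene NCAPH, with -0.29 (adjusted p = 0.0028). The separase gene espl1 rose, with 0.35 (adjusted p = 0.0015). With the averaged libraries 2 replication genes rose and 6 fell, and 1 mitotic gene rose and 2 fell. The number of mitotic genes that fell was also 2 without valproic acid replicate 1 or control replicate 5.

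**Figure D3:**
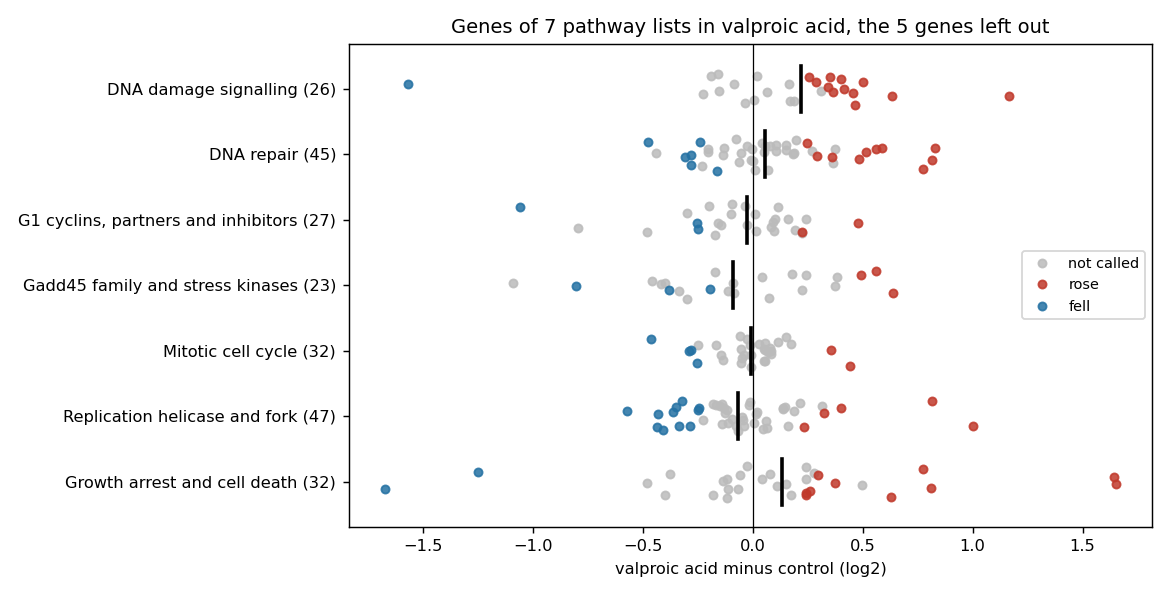
Valproic acid minus control (horizontal axis, log2) for the measured genes of 7 lists, with the 5 members left out, 1 point per gene, the list size in parentheses, and a bar at the median of each list. Of 26 DNA damage signalling genes 12 rose and 1 fell, and of 47 replication genes 5 rose and 11 fell. Vertical scatter within a list has no meaning.

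For retinoic acid and folic acid too the values of the 5 genes by treatment were known when the genes were picked, so the estimates and intervals below are a description, with no test attached. Over all genes, limma called 0.732% in retinoic acid and 0 in folic acid. An unadjusted limma p under 0.05 was found for 927 of 15710 genes in retinoic acid and for 507 in folic acid. No member had treated and control libraries fully apart in either comparison, beside 0.439% of all genes for retinoic acid and 0.0127% for folic acid. Both comparisons use the same control libraries.

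The retinoic acid estimates furthest above control were those of ccndx and gadd45g. In retinoic acid ccndx was at 6.09 in the lowest library, 8.17 in the median and 8.87 in the highest, with 45 to 244 estimated reads, against 3.67, 6.75 and 7.56 in controls, with 4 to 122. The estimated difference was 1.72 (SE 0.56, 95% interval 0.58 to 2.86), a 3.30-fold difference of the means. The groups overlapped over all libraries but not within any set, and the difference was 1.34 in numbers 1 to 12, 1.68 in 13 to 24, 2.61 in 25 to 36 and 1.26 in 37 to 48. With the sets as a block in the fit the same difference had an SE of 0.35 and a 95% interval of 1.001 to 2.44. That fit called 1.27% of all genes in retinoic acid. No test is attached to ccndx there either, because its values by treatment and set were known when it was picked. Without the libraries numbered 25 to 36 and with no block the difference was 1.43.

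For gadd45g the retinoic acid libraries were at 6.77 in the lowest, 7.54 in the median and 7.87 in the highest, against 6.21, 6.93 and 7.48 in controls. The difference was 0.61 (SE 0.27, 95% interval 0.07 to 1.15), with an SE of 0.22 where the sets were a block. The retinoic acid libraries were above the controls in each of the 4 sets, by 0.74, 0.61, 0.83 and 0.26 in the order of their numbers. Separation of this kind, in the higher direction in all 4 sets, was found after the values were seen and held for 0.961% of all genes in retinoic acid.

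The remaining members differed little in retinoic acid. The difference was -0.07 for atm (95% interval -0.32 to 0.18), 0.05 for ccng1 (95% interval -0.10 to 0.21) and -0.09 for gins2 (95% interval -0.59 to 0.42). No gene of the 7 pathway lists was called in retinoic acid.

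**Figure D4:**
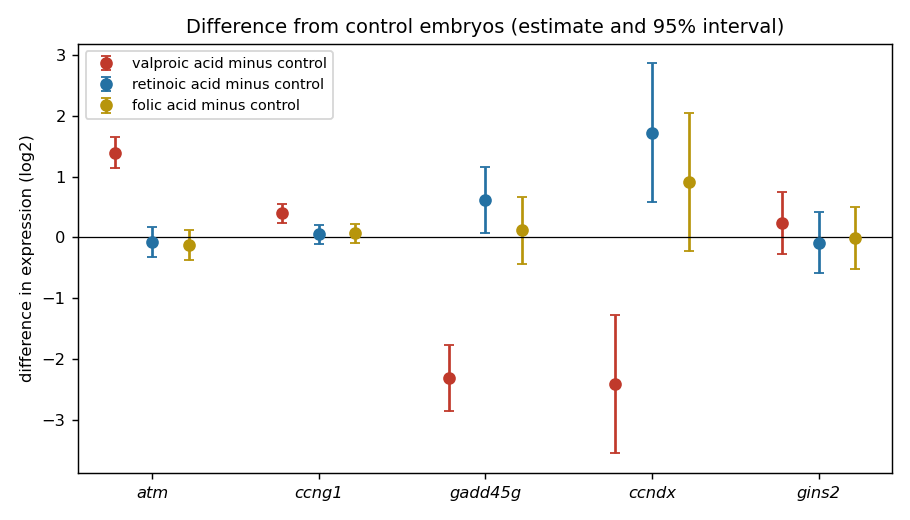
Difference from control (vertical axis, log2) with its 95% interval from limma for each of the 5 genes, in valproic acid, retinoic acid and folic acid (n = 8 libraries per group). For ccndx the estimate is -2.41 in valproic acid, 1.72 in retinoic acid and 0.91 in folic acid, and for atm it is 1.39, -0.07 and -0.13.

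In the means over all libraries, folic acid embryos were close to controls for 4 of the 5 genes. The difference was -0.13 for atm (95% interval -0.38 to 0.12), 0.07 for ccng1 (-0.09 to 0.22), 0.11 for gadd45g (-0.43 to 0.66) and -0.01 for gins2 (-0.51 to 0.50). The set differences of gins2 had both signs, with 0.71 in numbers 1 to 12, -0.44 in 13 to 24, -0.22 in 25 to 36 and -0.08 in 37 to 48. For ccndx the folic acid libraries were at 5.97 in the lowest, 7.20 in the median and 8.34 in the highest, against 3.67, 6.75 and 7.56 in controls (difference 0.91, 95% interval -0.23 to 2.05). Within each of the 4 sets both folic acid libraries were above both controls for ccndx, by 0.64, 0.43, 1.79 and 0.78 in the order of their numbers, a pattern held by 0.0764% of all genes in this direction. With the sets as a block the interval was 0.19 to 1.63, and no gene of the table was called for folic acid in that fit.

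**Figure D5:**
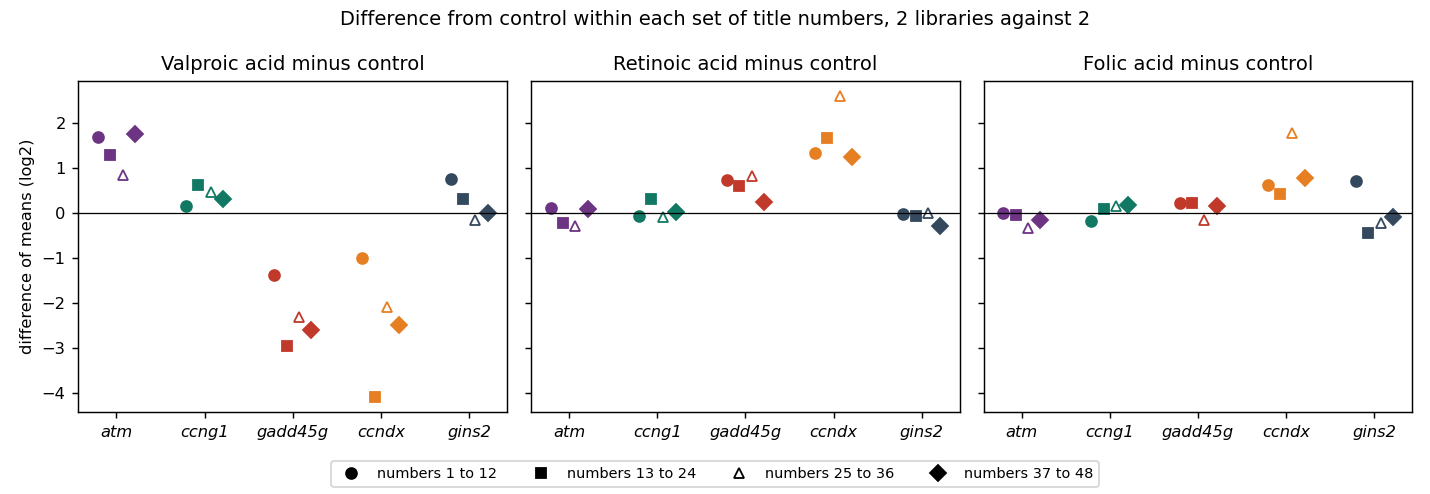
Difference of means from control (vertical axis, log2) within each set of 12 title numbers, 2 libraries against 2, for the 5 genes in valproic acid, retinoic acid and folic acid. In all 4 sets ccndx is lower than control in valproic acid and higher in retinoic acid and in folic acid, and gins2 has both signs in valproic acid.

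The sets of title numbers moved some members as well, and since the rule that picked the genes names these sets, their values carry no test. In numbers 25 to 36 against 1 to 24, with treatment in the fit, ccndx differed by -1.73 (95% interval -2.35 to -1.11) and gadd45g by -0.79 (-1.18 to -0.41), while atm, ccng1 and gins2 differed by -0.11, 0.06 and -0.15. In numbers 37 to 48 against 1 to 24, gins2 differed by 0.76 (0.43 to 1.08) and ccndx by 0.77 (0.16 to 1.39), and the other 3 members by -0.09 to 0.12. The labels do not say what the numbers stand for.

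Across the 32 libraries the log2 levels of gadd45g and ccndx ran together, with Pearson r = 0.86. Taken as deviations from the group means, which removes the treatments, r was 0.61, and as deviations from the means of each group and set it was -0.25. For atm and ccng1 the values were 0.64, -0.20 and 0.08, and for atm and gadd45g -0.82, 0.20 and -0.10. These correlations describe libraries that share treatments, sets and normalization, and no test was made of them.

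Among 10891 named genes with a mean of at least 5, those whose levels were most like each member over the 32 libraries, by Pearson r, were as follows. For ccng1 they included NATD1 (0.88) and the splicing factor gene ISY1 (0.87), with 0.74 and 0.69 as deviations from group means. For atm they were CPT1A, the carnitine transferase of mitochondrial fatty acid uptake (0.95), the galectin gene lgals9l3 (0.94) and the phosphatase gene PPM1L (0.93). As deviations from group means, which removes the treatments, these were lower, at 0.53, 0.55 and 0.31. CPT1A averaged 10.69 ± 0.13 in valproic acid libraries and 9.81 ± 0.08 in control libraries. For gadd45g they were OLIG2, a transcription factor of motor neuron progenitors (0.93), noxo1a, an organizer of NADPH oxidase (0.92), and the nuclear receptor gene NR2F6 (0.91). Their deviations from group means gave 0.86, 0.49 and 0.76. OLIG2 averaged 3.62 ± 1.97 in valproic acid, 7.41 ± 0.71 in retinoic acid and 6.39 ± 1.09 in controls. For ccndx they were foxi3a, a transcription factor of ionocyte precursors (0.92), HAPLN1, a linker of hyaluronan matrix (0.91), and DIXDC1, a Wnt pathway gene (0.90). Their deviations from group means gave 0.79, 0.78 and 0.87. For every member these deviations still hold the differences between the sets of title numbers, over which ccndx and gadd45g also differed. HAPLN1 averaged 4.68 ± 1.83 in valproic acid, 8.91 ± 0.33 in retinoic acid and 7.38 ± 0.64 in controls. For gins2 likeness was weaker, with tmco6 (0.72), the centromere gene CENPP (0.69) and FKBP10 (0.69), and 0.74, 0.68 and 0.70 as deviations from group means.

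Marker genes of cell types of the developing embryo were set beside these results, and their part in them was not tested. Whether embryos of this age already hold each of these cell types was not assessed. The counts are limma calls, to be read beside the 15.9% of all genes that rose and the 15.4% that fell in valproic acid. In valproic acid 7 of 16 paraxial mesoderm and somite genes fell and none rose, among them MYF5 by 0.92 (limma adjusted p = 0.00044) and her7 by 0.47 (adjusted p = 0.001). The summed level of a list is the log2 of the sum of its unlogged levels, in which the most abundant genes weigh most. It was between 14.89 and 15.40 in valproic acid and between 15.07 and 15.47 in controls for this list. Of 18 primary neuron genes 7 rose and 6 fell, with MYT1 higher by 1.29 (adjusted p = 1.8e-07), PHOX2A lower with a difference of -1.83 (adjusted p = 1.7e-05) and ISL1 lower with one of -2.51 (adjusted p = 2.7e-05, and equal to the library minimum in 3 of the 8 valproic acid libraries), and the summed level was between 13.06 and 13.33 in valproic acid and between 13.10 and 13.31 in controls. Of 18 enveloping layer genes 6 fell, among them anxa1c with -0.93 (adjusted p = 8.4e-07), and of 15 yolk syncytial layer genes 4 fell, among them GATA6 with -0.54 (adjusted p = 0.00018), with none rising in either list. Their summed levels were 17.89 to 18.21 in valproic acid and 17.91 to 18.43 in controls for the enveloping layer, and 16.89 to 17.12 in valproic acid and 16.85 to 17.23 in controls for the yolk syncytial layer. Of 11 germ cell genes TDRD6 rose by 0.49 (adjusted p = 0.013; 0.051 without the libraries numbered 25 to 36) and gra by 0.63 (adjusted p = 0.029), 18.2% and so near the share of all genes, and none fell. The call of gra ended with averaged libraries (adjusted p = 0.11) and without control replicate 2, 7 or 8 (0.051 to 0.069). The germ cell list had summed levels of 11.11 to 12.57 in valproic acid and 11.35 to 12.28 in controls. No marker was at the lowest value in all 8 valproic acid or all 8 control libraries. In numbers 25 to 36, where ccndx and gadd45g were lower, 10.5% of all genes were called higher and 10.9% lower than in 1 to 24. By the same limma calls, 2 of the 18 primary neuron genes were higher and 9 lower, 7 of the 16 paraxial mesoderm genes higher and 3 lower, and 4 of the 11 germ cell genes higher and none lower. Of the 15 yolk syncytial layer genes 4 were higher and 4 lower, of the 18 enveloping layer genes 4 and 2, and of the 32 mitotic genes 12 and 0.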

How the data were processed

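The authors deposited 1 table of normalized log2 expression for 15710 Ensembl genes and 32 libraries, with no pseudocount applied here. Per the submitters' processing notes, HTSeq 0.11.0 and limma were used with GRCz11. The sources used here name no aligner, annotation, filter or normalization step. The 1000 highest ranks of all libraries differed by at most 0.03, so a change of total RNA could not be seen. One limma model (version 3.58.1, R 4.3.3) took all 32 libraries with group means and an intensity trend, p-values were adjusted over all genes by Benjamini-Hochberg, and calls needed an adjusted p below 0.05. Genes with a mean under 1 were to be left out, which removed none (lowest mean 2.13). The fit was tested on simulated data in which libraries were shuffled over the sets of title numbers. That test therefore cannot show how the fit behaves where libraries of a set are alike. Because the genes were picked with their values by treatment and set known, all contrasts of the 5 genes are given as estimates and intervals, with no test.

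Reads were estimated as the number of distinct values below a gene's own in its library, the lowest being taken as 0 reads, and not beyond the first value held by 1 gene (321 to 569). The upper limit of 3 reads for the lowest value and these estimates cover counting error only.

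The members and the lists were chosen with earlier results of these data known. Of 344 list symbols, 115 matched the name table exactly, 177 ignoring case and 39 after removing a paralog letter, and 13 were not matched. Named genes were the relatives of the members, up to 4 called genes per list with the smallest adjusted p and the 3 most alike genes. Genes outside this rule are said to be so, and 1 gene that the rule names is not reported here and is left out of its list. Other settings were no trend, median centring, the sets as a block, averaged libraries, no filter or a filter at 5, only the 2 groups compared and each library left out. Settings without numbers 25 to 36 and without the 2 shallowest libraries were added after seeing the data. No coordinates or sequences were used here.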

Additional observations from a re-analysis of the deposited data

Results flagged for a closer look

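One value among the 20 combinations of gene and group stood far from the rest of its group. In the retinoic acid group gadd45g was at 6.77 in replicate 5, which carries a title number between 25 and 36, and the gap to the next library was 0.54 of the group's range, over the limit of 0.526 for 8 values. Chance passes that limit in about 1 of 20 groups.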

How the results depend on the processing

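The directions of atm, ccng1, gadd45g and ccndx in valproic acid held under every setting run, but most settings could not change them. With the groups balanced over the sets, the trend, filter, block, averaged-library and 2-group settings return the same estimated difference. So do the fits that leave out retinoic acid or folic acid libraries. Estimates could move without a control or valproic acid library, without numbers 25 to 36, and in single sets. Over the 32 fits without 1 library the difference ran between 1.34 and 1.46 for atm, 0.36 and 0.43 for ccng1, -2.45 and -2.15 for gadd45g, -2.78 and -2.04 for ccndx and 0.13 and 0.34 for gins2, whose sign turned in numbers 25 to 36 alone (-0.14). In these 32 fits ccndx in retinoic acid ran from 1.36 to 1.99, and gins2 ran from -0.21 to 0.022. In folic acid gins2 ran from -0.12 to 0.13 and was 0.064 without numbers 25 to 36. With the sets as a block 1 list gene other than the members had a limma adjusted p under 0.05 in retinoic acid, against 0 without the block. The shares of all genes were 1.27% with the block and 0.732% without it. Of the 229 genes of the 7 pathway lists other than the members, 44 rose and 30 fell in valproic acid, beside 15.9% and 15.4% of all genes. The counts were 40 to 47 and 25 to 35 without 1 library, and 28 and 17 with the averaged libraries. The shares of all genes in those other fits are not given here. Among uncalled relatives, GINS3 ran from -0.0086 to 0.11 (and was -0.040 without numbers 25 to 36), CCND2 from -0.10 to 0.26 and GADD45B (ENSDARG00000027744) from -0.042 to 0.10. The labels give the groups no shared replicate numbers, so single libraries were not paired, and the sets, which hold 2 libraries of every group, were fitted as a block instead. Depth limits ccndx and gadd45g in valproic acid, where some libraries held fewer than 10 estimated reads, and a size of fall there is not exact.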
